A study of Mus musculus with 18 samples.

Results

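The 10 *Hox* genes of paralog groups 9, 10 and 11 listed for this work were *Hoxa9*, *Hoxb9*, *Hoxc9*, *Hoxd9*, *Hoxa10*, *Hoxc10*, *Hoxd10*, *Hoxa11*, *Hoxc11* and *Hoxd11*. They were chosen by name, with earlier results of these data known, and each matched one Ensembl row among the 38924 genes of the count table. All 10 were among the 16577 genes with enough counts to be tested. Their RNA was read in fibroblasts of the adult mouse heart (HF), kidney (KF) and tail (TF), kept in culture (c) or sorted after transplantation under the capsule of the kidney (s), which gave the groups HFc, HFs, KFc, KFs, TFc and TFs with 3 libraries each. Donors of all 6 groups were labelled as male mice, 10 weeks old, of the genotype Rosa mT/mG on a C57BL/6 background, a reporter that marks their cells with TdTomato. The cells had been in culture for 10 days. Between 400000 and 500000 of them were placed with gelatin foam in a syngeneic C57BL/6J recipient aged 10 to 11 weeks, and live CD45−;TdTomato+ cells were collected from the kidney 3 days later. The cultured controls were the leftover cells, replated at 50000 per well. The labels do not tie a library to one donor, so p-values measure the spread between libraries, and in bulk RNA a smaller share of expressing cells and less RNA per cell cannot be told apart.

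*Hox* genes encode homeodomain transcription factors that lie in 4 clusters, A to D, and give cells their position along the body axis of the embryo. Within a cluster, genes of low paralog number are used towards the head and genes of high number towards the tail. Groups 9 to 11 pattern the abdominal, lumbar and sacral region and the limb, and group 11 genes are required together for the outgrowth of the ureteric bud that starts the kidney. Many adult fibroblasts keep a *Hox* pattern that reflects where in the embryo they arose, whereas the heart forms in front of the domain of these genes.

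With an adjusted p under 0.05 and a log2 fold change beyond 1 in every comparison, 8 of the 10 members passed between cultured heart and tail fibroblasts (19.5% of all genes), 7 between kidney and tail (16.3%) and 8 between kidney and heart (14.9%). Under the same limits 4 passed between transplanted and cultured heart fibroblasts (27.7% of all genes), 0 in kidney (22.6%) and 2 in tail fibroblasts (16.5%). Kidney and tail fibroblasts expressed *Hoxb9*, *Hoxc10*, *Hoxa10*, *Hoxc9* and *Hoxa9* in every library, and heart fibroblasts had almost none. Kidney fibroblasts had more *Hoxc9* and *Hoxa9*, and tail fibroblasts more *Hoxa11* and *Hoxc11*. After transplantation, none of the members passed the test in kidney fibroblasts, traces of *Hoxd9* and *Hoxd11* rose in tail fibroblasts, and traces of *Hoxa9*, *Hoxa10*, *Hoxc9* and *Hoxc10* rose in heart fibroblasts.

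Library totals lay between 17927838 and 32245168 counts, and a gene at or under 3 counts was treated as not detectable above the floor. Levels are given as counts as deposited or as CPM, counts relative to the size of the library, after TMM scaling, and levels of different genes are compared only per kilobase of exon (RPKM). Among cultured cells, the defining genes of each organ were where their labels put them. *Tbx20*, a heart transcription factor, had 1185 CPM ± 34.8 (SD, n = 3) in HFc and at most 0.526 CPM in any kidney or tail library. *Hoxb13*, the most posterior gene of the HoxB cluster, had 66.0 CPM ± 1.79 (SD, n = 3) in TFc and at most 2 counts in any heart or kidney library. *Pax8*, a kidney transcription factor, had 17.9 CPM ± 1.02 (SD, n = 3) in KFc and at most 1 count in HFc and TFc. After transplantation *Pax8* was called higher in heart fibroblasts, at 0.902 to 3.97 CPM in HFs (adjusted p = 0.0126), and in tail fibroblasts, at 0.863 to 1.77 CPM in TFs (adjusted p = 0.0362). The library labelled KFs replicate 3 stood apart, with 1492 CPM of *Xist* against at most 0.404 CPM in the other 17 libraries and 0.722 CPM of 4 Y-linked genes against at least 175 CPM. These values go against its label as cells of a male donor. Calls for the members in comparisons with KFs are also given without it. It also enters the shared estimate of spread behind every other call. Without it, the same members were called in the comparisons without KFs, and *Hoxc9* was added in the heart against the tail response. Calls over all genes rose, for HFc relative to TFc from 6943 of 16577 to 8227 of 16923. Calls for other genes in KFs are given only with it.

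On GRCm38, *Hoxa9* (52223100 to 52231089), *Hoxa10* (52231197 to 52240854) and *Hoxa11* (52242106 to 52245810) lie next to each other on the minus strand of chromosome 6. *Hoxb9* lies on chromosome 11 from 96271457 to 96276595 on the plus strand. *Hoxc11* (102954427 to 102957708), *Hoxc10* (102966796 to 102971893) and *Hoxc9* (102976439 to 102985099) follow each other on the plus strand of chromosome 15. *Hoxd11* (74679557 to 74687016), *Hoxd10* (74691924 to 74695105) and *Hoxd9* (74697727 to 74700208) do so on the plus strand of chromosome 2. Reads of 75 bases could be assigned with little ambiguity: of all stretches of that length in the transcripts of a member, none was shared with another gene for *Hoxa10*, *Hoxa11*, *Hoxb9*, *Hoxc9*, *Hoxc11* and *Hoxd9*. The share was 0.198% for *Hoxa9*, 1.78% for *Hoxd10*, 5.12% for *Hoxc10*, where *Hoxc5* has a long transcript over the same strand, and 9.44% for *Hoxd11*, so the counts of the last 2 genes are the least certain.

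The start sites of the 3 HoxA members are printed because these genes are neighbours on 1 strand and yet differ in which organ has more of them. RefSeq start windows, 250 bases before to 50 after an annotated start, were found for 6 of the 10 members (*Hoxa9*, *Hoxa10*, *Hoxa11*, *Hoxd9*, *Hoxd10* and *Hoxd11*), 8 windows in all. They were searched on both strands for the TATA box TATAAA, for the CCAAT box, for the Hox with Pbx string TGATTNAT, and for TTTATG, a core shared by Cdx and posterior Hox proteins. The first and the last of these strings can overlap. Capitals mark each match. The windows are chr6:52227321-52227620 for *Hoxa9*, chr6:52234890-52235189 for one of the 2 starts of *Hoxa10* and chr6:52245761-52246060 for *Hoxa11*, all on GRCm38.p6 and the minus strand.
Hoxa9: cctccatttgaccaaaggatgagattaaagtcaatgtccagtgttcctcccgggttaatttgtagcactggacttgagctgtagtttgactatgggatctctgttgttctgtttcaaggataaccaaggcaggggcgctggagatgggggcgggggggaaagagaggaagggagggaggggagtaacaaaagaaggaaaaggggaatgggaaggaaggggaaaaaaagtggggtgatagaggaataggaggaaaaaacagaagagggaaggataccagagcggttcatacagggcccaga
Hoxa10: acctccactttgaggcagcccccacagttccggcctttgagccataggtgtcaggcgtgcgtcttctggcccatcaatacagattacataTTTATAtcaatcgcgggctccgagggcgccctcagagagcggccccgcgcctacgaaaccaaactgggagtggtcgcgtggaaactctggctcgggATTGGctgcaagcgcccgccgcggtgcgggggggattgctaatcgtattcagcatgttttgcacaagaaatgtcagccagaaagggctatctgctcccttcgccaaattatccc
Hoxa11: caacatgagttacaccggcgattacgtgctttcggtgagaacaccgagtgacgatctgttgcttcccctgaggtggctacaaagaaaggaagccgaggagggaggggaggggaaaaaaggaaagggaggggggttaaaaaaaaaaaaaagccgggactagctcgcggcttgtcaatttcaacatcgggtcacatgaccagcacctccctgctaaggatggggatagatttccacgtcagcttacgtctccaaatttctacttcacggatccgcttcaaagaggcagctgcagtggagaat
This *Hoxa10* window held TATAAA, which 13.6% of all 32851 windows hold, and CCAAT, which 37.4% hold. The window of its other start, chr6:52240805-52241104, held none of the 4 strings and 12 CpG dinucleotides. None of the 4 strings was present in the *Hoxa9* and *Hoxa11* windows. CpG dinucleotides numbered 4 at *Hoxa9*, 21 at *Hoxa10* and 15 at *Hoxa11*, against a median of 7 over all windows. TGATTNAT, held by 3.22% of all windows, was found at 1 of the *Hoxd11* starts, and TTTATG, held by 11.9%, at the other, and CCAAT at the *Hoxd10* start.

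Per kilobase, *Hoxc10* was the highest member in KFc with 26.9 RPKM ± 0.0841 (SD, n = 3), followed by *Hoxb9* with 15.1 RPKM ± 0.854. *Hoxc9* had 6.82, *Hoxa10* 5.66 and *Hoxa9* 2.82 RPKM there, and the other 5 members had less than 1. In TFc the order began with *Hoxb9* at 18.7 RPKM ± 1.28 and *Hoxc10* at 14.04 RPKM ± 0.702 (SD, n = 3). *Hoxa10* had 4.29, *Hoxc11* 3.81 and *Hoxa11* 2.30 RPKM in TFc, all above the 1.54 RPKM of *Hoxc9* and the 1.17 RPKM of *Hoxa9*. *Hoxa11* and *Hoxc11* therefore ranked above *Hoxc9* and *Hoxa9* in tail fibroblasts and below them in kidney fibroblasts, while *Hoxd11*, the other group 11 gene, ranked last in both. The exon length of *Hoxa9* and *Hoxd11* depends on the transcripts counted. With the longest coding transcript *Hoxa9* would stand at 4.88 RPKM in KFc and 2.03 RPKM in TFc. *Hoxd11* would then have 0.289 RPKM in KFc, above the 0.202 RPKM of *Hoxd9*, and would not be last there. Summed over members, group 11 made up 13.3% ± 1.17 of the RPKM of TFc and 2.16% ± 0.151 of that of KFc (SD, n = 3), and the ranges of the libraries, 12.6% to 14.7% and 2.02% to 2.32%, did not overlap.

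**Figure D1:**
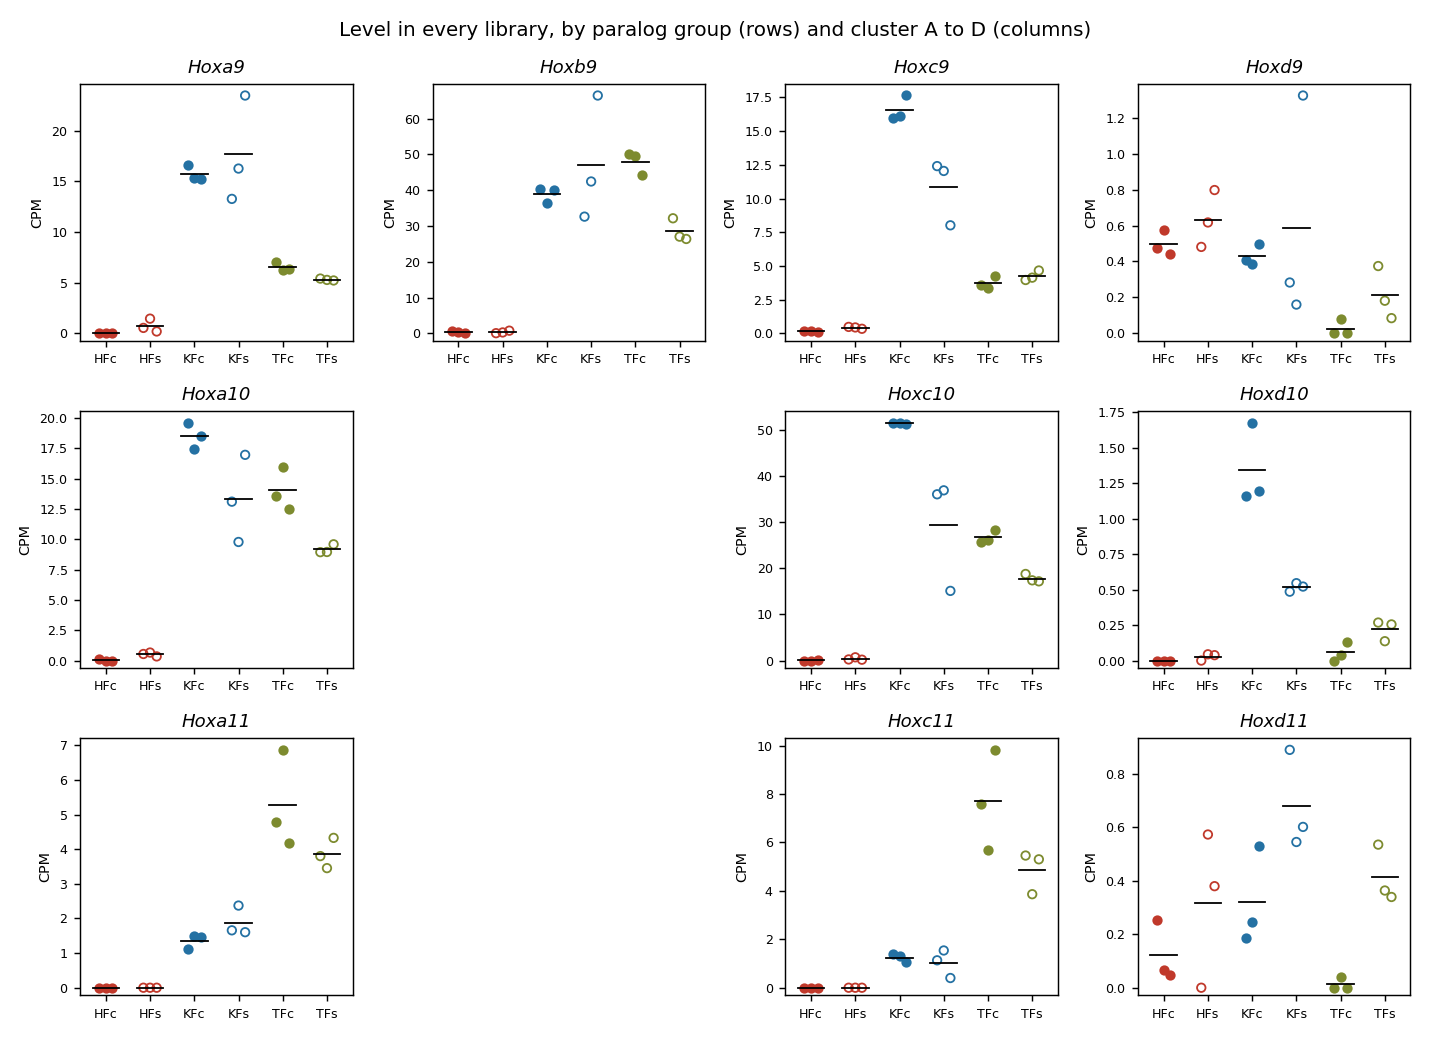
Level of each member in CPM (counts relative to library size, TMM scaled) in all 18 libraries, with paralog groups 9, 10 and 11 in rows and clusters A to D in columns; filled points are cultured, open points transplanted, and the line is the group mean. Heart libraries sit at the bottom of every panel of clusters A, B and C, kidney leads for Hoxc9 and Hoxc10 and tail for Hoxa11 and Hoxc11, and the HoxD panels span less than 2 CPM.

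Cultured kidney and tail fibroblasts were compared first. *Hoxc9*, which patterns the lower thoracic and abdominal level, had 16.0, 16.1 and 17.7 CPM in the KFc libraries and 3.62, 3.34 and 4.25 CPM in the TFc libraries. *Hoxa9*, known for its part in blood stem cells as well as in axial patterning, had 16.6, 15.4 and 15.2 CPM in KFc and 7.004, 6.28 and 6.36 CPM in TFc. *Hoxc10*, a lumbar level gene, had 51.5, 51.6 and 51.3 CPM in KFc and 25.8, 26.3 and 28.3 CPM in TFc. All 3 genes were higher in each kidney library than in any tail library, where 59.7% of all genes had no overlap in either direction. The log2 fold change of KFc over TFc was 2.15 ± 0.19 (SE) for *Hoxc9* (adjusted p = 4.33e-07), 1.26 ± 0.36 for *Hoxa9* (adjusted p = 0.0147) and 0.94 ± 0.29 for *Hoxc10* (adjusted p = 0.0181).

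The group 11 genes of clusters A and C went the other way. *Hoxa11*, which with its paralogs is needed for kidney and forearm development, had 1.12, 1.50 and 1.46 CPM in KFc and 4.78, 6.87 and 4.17 CPM in TFc. *Hoxc11* had 1.38, 1.29 and 1.06 CPM in KFc and 7.57, 5.69 and 9.82 CPM in TFc. The tail libraries were all above the kidney libraries for both genes, and KFc over TFc gave a log2 fold change of -1.95 ± 0.29 for *Hoxa11* (adjusted p = 0.000334) and -2.62 ± 0.41 for *Hoxc11* (adjusted p = 0.000464). *Hoxa10* and *Hoxb9* did not pass the test between KFc and TFc with all groups in the fit. Both passed the adjusted p when only KFc and TFc were fitted (0.43, adjusted p = 0.00165, and -0.27, adjusted p = 0.00211). *Hoxa10*, required for the uterus and the lumbar spine, had 17.4 to 19.6 CPM in KFc and 12.5 to 16.0 CPM in TFc (log2 fold change 0.40 ± 0.27, adjusted p = 0.265). *Hoxb9* had 36.4 to 40.4 CPM in KFc and 44.2 to 50.2 CPM in TFc (log2 fold change -0.30 ± 0.28, adjusted p = 0.42). *Hoxd10* had 31, 48 and 36 counts in KFc and 0, 1 and 3 in TFc (adjusted p = 0.000385). Against 36.4% of all genes tested, 6 of the 10 members were called higher and 2 lower in KFc, the HoxD genes included. At an adjusted p limit of 0.01 the count was 5, without *Hoxa9*, *Hoxc10* and *Hoxd11*.

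Among transplanted cells, *Hoxc9*, *Hoxa9*, *Hoxa11* and *Hoxc11* kept the order they had between kidney and tail in culture. *Hoxc9* had 12.4, 12.1 and 8.02 CPM in KFs and 3.96, 4.14 and 4.67 CPM in TFs. *Hoxa9* had 13.3, 16.3 and 23.5 CPM in KFs and 5.41, 5.27 and 5.22 CPM in TFs. *Hoxc11* had 1.13, 1.54 and 0.401 CPM in KFs and 5.46, 3.86 and 5.30 CPM in TFs. In none of these 3 genes did the ranges overlap, as in 35.1% of all genes. The log2 fold change of KFs over TFs was 1.35 ± 0.18 for *Hoxc9* (adjusted p = 7.3e-05), 1.74 ± 0.37 for *Hoxa9* (adjusted p = 0.00329), -2.24 ± 0.41 for *Hoxc11* (adjusted p = 0.00199) and -1.03 ± 0.29 for *Hoxa11* (adjusted p = 0.0187). These 4 were the only members called, 2 higher and 2 lower, against 29.1% of all genes. *Hoxa11* lost its call in 5 of the alternative settings. *Hoxb9* changed sign, from a log2 fold change of -0.30 in culture to 0.73 ± 0.28 here (adjusted p = 0.0619). It was called in neither by edgeR with all 18 libraries. *Hoxc10* had 36.1, 36.9 and 15.1 CPM in KFs and 17.2 to 18.8 CPM in TFs, and did not pass with all libraries (log2 fold change 0.72 ± 0.29, adjusted p = 0.0742). Without KFs replicate 3 it did (1.04, adjusted p = 0.000313), and 5 members were called against 35.1% of all genes. When the fit held proximal tubule marker RNA as a term, *Hoxa11* and *Hoxc11* lost their call and 2 members, *Hoxa9* and *Hoxc9*, remained, against 5.93% of all genes, and DESeq2 called 7.

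**Figure D2:**
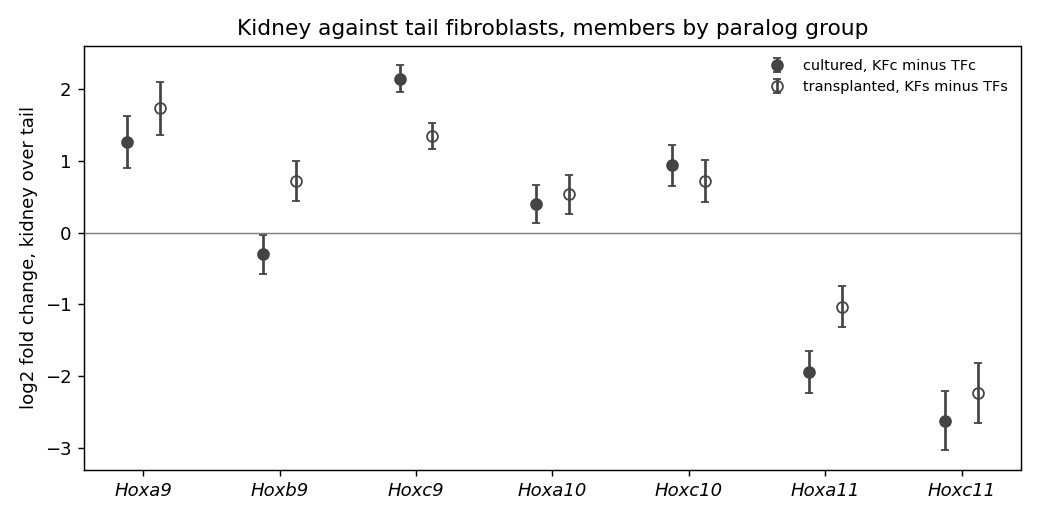
Log2 fold change of kidney over tail fibroblasts with its standard error (from 3 libraries a group) for the members of clusters A, B and C, ordered by paralog group, in culture (filled) and after transplantation (open). Hoxa9, Hoxc9 and Hoxc10 lie above zero and Hoxa11 and Hoxc11 below it in both states; Hoxb9 lies at -0.30 in culture and 0.73 after transplantation.

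Heart fibroblasts were almost free of these genes in culture. *Hoxa9*, *Hoxa11*, *Hoxc11* and *Hoxd10* had 0 counts in each of the 3 HFc libraries, *Hoxc10* had 0, 0 and 2 counts and *Hoxa10* had 4, 0 and 0. *Hoxb9* had 17, 12 and 4 counts and *Hoxc9* 5, 5 and 2. The corresponding counts in KFc lay between 1044 and 1205 for *Hoxb9* and between 428 and 531 for *Hoxc9*. Against the floor of 3 counts per library, *Hoxa9* was at least 132-fold lower in HFc than in KFc and at least 54.8-fold lower than in TFc. *Hoxa11* was at least 11.39-fold lower than in KFc and at least 44.1-fold lower than in TFc, and *Hoxc11* at least 10.4-fold and 64.4-fold lower. *Hoxb9* was lower in HFc by a log2 fold change of -6.81 ± 0.40 relative to TFc (adjusted p = 3.48e-09), and KFc exceeded HFc by 6.51 ± 0.40 (adjusted p = 1.42e-08). Relative to TFc, 7 members were called lower and 1, *Hoxd9*, higher in HFc, where 41.9% of all genes were called. In KFc relative to HFc 8 members were called higher and none lower, against 29.2% of all genes, and *Hoxd9* and *Hoxd11* were the 2 without a call.

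Transplanted heart fibroblasts were also below the other organs. In KFs relative to HFs the same 8 members as in culture were called higher, against 33.2% of all genes, and against 38.8% when KFs replicate 3 was left out, with 8 called again. In HFs relative to TFs 8 members were called lower, against 23.1% of all genes, with *Hoxd9* and *Hoxd11* again without a call. Of these 8, *Hoxd10* rested on 0, 1 and 1 counts in HFs and 5, 3 and 6 in TFs (adjusted p = 0.0456), and it lost the call in 11 settings, among them DESeq2 and each fit without 1 HFs or TFs library. *Hoxa11* and *Hoxc11* stayed at 0 counts in the 3 HFs libraries, which placed them at least 27.1-fold and 34.3-fold below TFs and at least 13.2-fold and 7.2-fold below KFs. *Hoxb9* had 1, 6 and 20 counts in HFs, against 595 to 622 in TFs. The log2 fold change of heart relative to tail fibroblasts was -7.96 in culture and -4.16 after transplantation for *Hoxa10*, -4.55 and -3.34 for *Hoxc9*, and -6.81 and -6.13 for *Hoxb9*.

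Transplantation itself was followed by few changes of these genes in kidney fibroblasts. None of the members was called in KFs relative to KFc, where 22.6% of all genes passed an adjusted p of 0.05 and a log2 fold change of 1 in either direction. At an unadjusted p under 0.05 there were 3, and DESeq2 called 1, *Hoxd10*. By the adjusted p alone, which 48.8% of all genes passed, *Hoxc9* and *Hoxc10* were lower. *Hoxc9* went from a mean of 16.6 CPM ± 0.929 in KFc to 10.8 CPM ± 2.44 in KFs (SD, n = 3 each), with a log2 fold change of -0.61 ± 0.18 (adjusted p = 0.00963). *Hoxc10* went from 51.5, 51.6 and 51.3 CPM to 36.1, 36.9 and 15.1 CPM, with a log2 fold change of -0.81 ± 0.29 (adjusted p = 0.029). The KFs libraries were below all KFc libraries for both genes, where 51.2% of all genes had no overlap in either direction. Without KFs replicate 3 the values were -0.48 for *Hoxc9* (adjusted p = 0.0172) and -0.54 for *Hoxc10* (adjusted p = 0.0185), and *Hoxa10* also passed that limit (-0.74, adjusted p = 0.0163). No member reached a log2 fold change of 1 with an adjusted p under 0.05 in that fit either, against 23.2% of all genes. *Hoxa9* and *Hoxb9* had log2 fold changes of 0.17 ± 0.35 and 0.28 ± 0.28 with all libraries and -0.13 and -0.10 without KFs replicate 3, and passed in neither.

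*Hoxd10*, a limb and spinal cord gene, was the member with the largest fitted fall in KFs. It had 31, 48 and 36 counts in KFc and 12, 17 and 13 in KFs, or 1.16 to 1.68 CPM against 0.485 to 0.545 CPM. The 3 transplanted libraries were below the 3 cultured ones. The log2 fold change of -1.37 ± 0.60 did not pass with all groups in the fit (adjusted p = 0.0754), and it passed with DESeq2 (-1.38, adjusted p = 0.0339) and when only KFs and KFc were fitted (-1.37, adjusted p = 0.0303). Without KFs replicate 3 it was -1.42 (adjusted p = 0.107).

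In tail fibroblasts, the members of clusters A, B and C likewise passed no call in TFs relative to TFc, where 16.5% of all genes did. *Hoxb9* had 50.2, 49.6 and 44.2 CPM in TFc and 32.2, 27.0 and 26.4 CPM in TFs, with no overlap, as in 60.4% of all genes. Its log2 fold change of -0.75 ± 0.28 passed the adjusted p alone (0.0432), as 38.8% of all genes did, and not the fold limit. *Hoxa10* went from 14.02 CPM ± 1.78 to 9.16 CPM ± 0.37 (-0.61 ± 0.27, adjusted p = 0.0869), *Hoxc10* from 26.8 CPM ± 1.34 to 17.8 CPM ± 0.87 (-0.59 ± 0.29, adjusted p = 0.119) and *Hoxc11* from 7.69 CPM ± 2.07 to 4.87 CPM ± 0.88 (-0.66 ± 0.39, adjusted p = 0.2; SD, n = 3 each). *Hoxc9* had 3.74 CPM in TFc and 4.25 CPM in TFs, with overlapping libraries. The 2 members called, both higher in TFs, were *Hoxd9* and *Hoxd11*, at the few counts described next.

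The HoxD members were low in every group, and their highest value in any library was 1.68 CPM. The strongest was *Hoxd10* in KFc, which at 0.739 RPKM stood above *Hoxc11* (0.616) and *Hoxa11* (0.595) there. For it, the summed counts of KFc over TFc gave a ratio of 27.55 with a 95% counting interval of 10.5 to 103. *Hoxd9*, which acts in the limb and the lumbar spinal cord, had 0, 2 and 0 counts in TFc and 7, 4 and 2 in TFs. *Hoxd11*, a paralog of *Hoxa11* in kidney and forearm, had 0, 1 and 0 counts in TFc and 10, 8 and 8 in TFs. The ratio of summed counts of TFs over TFc, scaled for library size, was 8.29 for *Hoxd9*, with a 95% interval of 1.88 to 75.7 (exact binomial, counting error only), and 33.2 for *Hoxd11*, with an interval of 5.45 to 1360. The adjusted p was 0.0483 for *Hoxd9* and 0.00647 for *Hoxd11*. *Hoxd9* lost its call in 8 of the alternative settings. *Hoxd9* and *Hoxd11* were the members with their lowest group mean in TFc and not in the heart. *Hoxd9* had 13, 17 and 9 counts in HFc, 8, 14 and 21 in HFs and 11, 11 and 15 in KFc. At 0.233 RPKM ± 0.0326 (SD, n = 3) it was the highest member in HFc per kilobase. HFc exceeded TFc by a ratio of 20.7 with an interval of 5.35 to 177 (adjusted p = 0.00431), and HFc and KFc had overlapping values (adjusted p = 0.875).

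**Figure D3:**
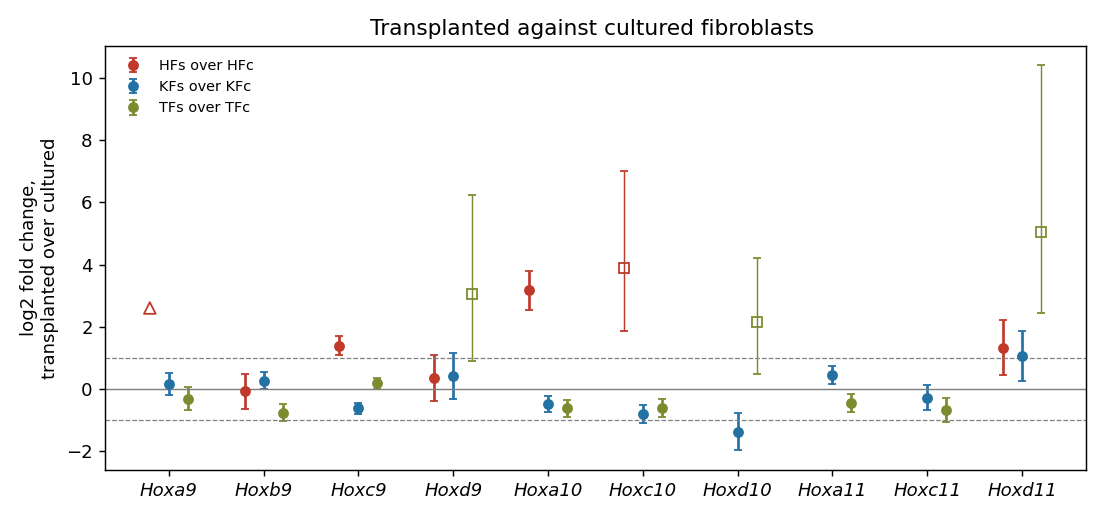
Log2 fold change of transplanted over cultured cells for each member in heart, kidney and tail fibroblasts (3 libraries a group): filled points are fitted values with their standard error, open squares are ratios of summed counts with a 95% counting interval where the cultured libraries were at or under 3 counts, the open triangle is the lower bound for Hoxa9 against 0 counts in HFc, and pairs with both groups at or under 3 counts are not drawn. Dashed lines mark the fold limit of 1; filled kidney and tail points of clusters A, B and C lie between them.

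Heart fibroblasts gained low counts of several members after transplantation. *Hoxa9* had 0 counts in each HFc library and 9, 33 and 5 in HFs. *Hoxa10* had 4, 0 and 0 counts in HFc and 9, 15 and 9 in HFs. *Hoxc10* had 0, 0 and 2 counts in HFc and 4, 16 and 5 in HFs, and *Hoxc9* 5, 5 and 2 in HFc and 8, 10 and 9 in HFs. For each of the 4 genes the HFs libraries were above the HFc libraries, where 67.3% of all genes had no overlap in either direction. *Hoxa9* was at least 6.1-fold higher in HFs against the floor of 3 counts per library (adjusted p = 0.00013). The ratio of summed counts for *Hoxc10* was 14.7 with a 95% interval of 3.67 to 128 (adjusted p = 0.00584). The log2 fold change was 3.18 ± 0.62 for *Hoxa10* (adjusted p = 0.000469) and 1.40 ± 0.31 for *Hoxc9* (adjusted p = 0.00789). These 4 of the 10 members were called higher and none lower, against 27.7% of all genes called in either direction. When only HFs and HFc were fitted, 2 members kept enough counts to be tested and none was called. *Hoxc10* lost its call without HFs replicate 2.

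The level reached was small beside the other organs. HFs had 4.13% of the KFs mean of *Hoxa9*, 3.88% for *Hoxa10*, 3.89% for *Hoxc9* and 1.29% for *Hoxc10*. *Hoxb9*, a strong member in kidney and tail, had 0.766% of the KFs mean in HFs and no difference from HFc was detectable at this depth (17, 12 and 4 counts against 1, 6 and 20, adjusted p = 0.926). The response of heart fibroblasts differed from that of tail fibroblasts for *Hoxa9* (adjusted p = 0.000928), *Hoxa10* (adjusted p = 0.00109) and *Hoxc10* (adjusted p = 0.0084), against 22.8% of all genes called in that test of the difference. It differed from that of kidney fibroblasts for the same 3 genes and *Hoxc9* (adjusted p = 0.000867 to 0.00488), against 26.2% of all genes, and against 35.2% with 4 members called again when KFs replicate 3 was left out. The kidney and tail responses differed for 1 member, *Hoxd10* (adjusted p = 0.0478), against 11.1% of all genes, and for 3, *Hoxc9*, *Hoxd9* and *Hoxd10*, against 21.4% without KFs replicate 3. *Hoxd10* lost its call in that test in 16 of the alternative settings.

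Kidney tubule genes appeared in the same libraries, although the sort was for TdTomato+ cells. All 12 proximal tubule markers were called higher in HFs than in HFc, and their summed level was 155, 1379 and 91.9 CPM in HFs replicates 1, 2 and 3, against 19.9 to 20.7 CPM in HFc. All 8 markers of the loop, distal tubule and collecting duct were called higher too, with sums of 12.02, 87.9 and 52.7 CPM against at most 0.147 CPM. *Slc34a1*, the phosphate transporter of the proximal tubule, and *Umod*, which marks the thick ascending limb, were at 0 counts in all HFc libraries. Replicate 2, the library with the most tubule RNA, also had the highest CPM of *Hoxa9*, *Hoxa10* and *Hoxc10*, while *Hoxc9* was highest in replicate 1 (0.481, 0.441 and 0.342 CPM). The summed proximal tubule level lay between 129 and 361 CPM in TFs and between 62.3 and 129 CPM in KFs. Summed markers of 7 endothelial genes were 60.5 to 69.1 CPM in HFs and 39.8 to 42.6 CPM in HFc, and erythroid markers, at 0 in HFc, summed to 38.4, 0.132 and 42.5 CPM in HFs. The part of host cells or host RNA in the *Hox* counts of HFs was not tested. Among transplanted cells, with the proximal tubule level as a covariate, HFs was called below TFs in 7 members, against 8.59% of all genes in that fit, and below KFs in 8, against 3.72%.

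**Figure D4:**
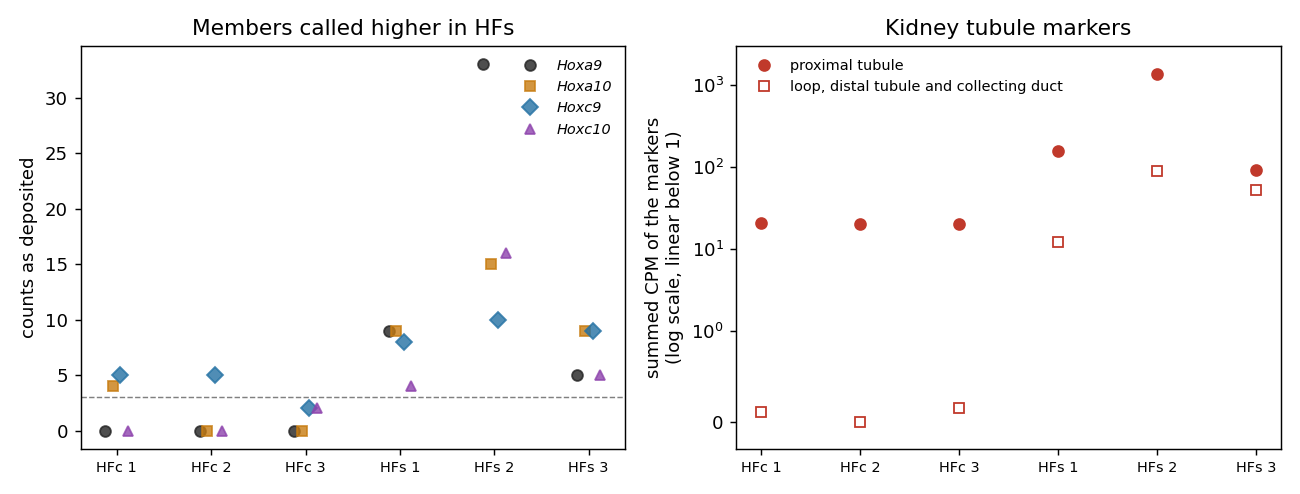
Heart fibroblast libraries: left, counts as deposited of the 4 members called higher in HFs, with the floor of 3 counts dashed; right, summed CPM of 12 proximal tubule markers (filled) and of 8 markers of the loop, distal tubule and collecting duct (open), on a scale that is logarithmic above 1 and linear below. HFs replicate 2 has the highest value of all 4 genes and of both marker sums.

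Other *Hox* genes were read beside the members. All 8 genes of groups 6 to 8 were called higher in HFs than in HFc, with a median log2 fold change of 3.38 against 0.05 over all genes. None of them was called in KFs. Of groups 12 and 13, 4 were tested, and *Hoxc13* was lower in HFs, *Hoxc12* and *Hoxc13* in KFs and these 2 and *Hoxb13* in TFs. Of all genes, 27.7% were called in HFs, 22.6% in KFs and 16.5% in TFs. Groups 9 to 11 held 28.8% ± 0.24 of the summed *Hox* RPKM in KFc and 29.8% ± 0.627 in TFc (SD, n = 3), and 24.9% ± 3.31 and 31.2% ± 2.06 after transplantation. Groups 12 and 13 held 46.6% in TFc and 28.1% in TFs. In HFc groups 9 to 11 held 9.67% of a sum that was itself small, at 0.514 RPKM for the 10 members together, and in HFs 13.8% and 1.19 RPKM.

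KFs replicate 3 differed from the other KFs libraries cluster by cluster. *Hoxc9*, *Hoxc10* and *Hoxc11* were at 0.656, 0.414 and 0.3 of the mean of replicates 1 and 2. *Hoxb9* was at 1.77 and *Hoxa9* and *Hoxa10* were at 1.59 and 1.48 of that mean, and *Hoxd9* was at 5.97, with 33 counts against 7 and 5. Over the *Hox* genes of groups 2 to 13 above 20 counts in a KFs library, the 8 of cluster C were all below both other libraries and the 8 of cluster B all above, with median ratios of 0.655 and 2.86. The 9 of cluster A were split, 5 below and 3 above both. This is 1 library, and no test can be made. The same library had 207 CPM of 6 kidney stromal and epithelial markers, against 26.0 and 21.9 CPM in the other two, and 17840 CPM of 8 fibroblast markers, against 92920 and 69120 CPM.

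**Figure D5:**
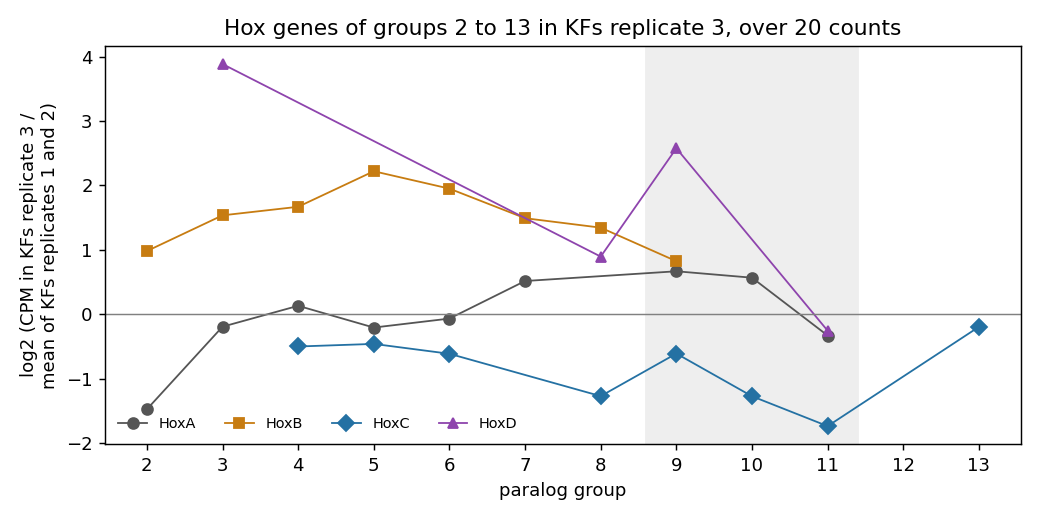
Log2 ratio of the level in KFs replicate 3 to the mean of KFs replicates 1 and 2 for each Hox gene of groups 2 to 13 with more than 20 counts in a KFs library, by paralog group and cluster; the grey band marks groups 9 to 11. The HoxB genes lie above zero and the HoxC genes below it at every paralog group shown.

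Genes known to work with these factors were read from lists. TALE homeodomain proteins (Pbx, Meis, Pknox) bind DNA together with Hox proteins. Of 9, *Meis1* (log2 fold change 1.41 ± 0.21, adjusted p = 4.42e-05) and *Meis2* (1.04 ± 0.14, adjusted p = 1.11e-05) were higher in HFs, and *Pknox2* was higher in KFs (1.64 ± 0.20, adjusted p = 1.11e-05) and in TFs (1.81 ± 0.21, adjusted p = 9.4e-06). *Meis1* had 20.9 CPM ± 0.941 in HFc and 55.4 CPM ± 4.36 in HFs (SD, n = 3), in cells with few counts of groups 9 to 11. Of 20 Polycomb and Trithorax genes, which keep *Hox* genes silent or active, 1 was called in HFs (*Cbx7*, higher), 1 in KFs (*Kdm6a*, higher) and none in TFs. With the same fold limit, 27.7%, 22.6% and 16.5% of all genes were called, which stands beside the TALE genes too. Between cultured organs, by the adjusted p alone, 10 of the 20 were called for HFc relative to TFc (41.9% of all genes), 8 for KFc relative to TFc (36.4%) and 6 for KFc relative to HFc (29.2%).

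A list of 10 genes that act with or after group 11 in the embryonic kidney were also read. *Itga8*, an integrin of the metanephric mesenchyme, fell in KFs (-3.64 ± 0.47, adjusted p = 1.65e-05), from 18.8 CPM ± 0.502 to 1.51 CPM ± 1.29 (SD, n = 3), and in TFs (-1.43 ± 0.47, adjusted p = 0.0259). *Gdnf*, the ligand that draws out the ureteric bud, and *Six4* rose in KFs (1.34 ± 0.31, adjusted p = 0.0021, and 1.24 ± 0.20, adjusted p = 0.000115). *Wt1* rose in HFs (1.67 ± 0.30, adjusted p = 0.000242), *Sall1* rose and *Eya1* fell in HFs. In number, 3 rose and 1 fell in HFs, 2 rose and 1 fell in KFs and 1 rose and 1 fell in TFs, where 27.7%, 22.6% and 16.5% of all genes were called. Cultured kidney and tail fibroblasts differed by the adjusted p alone in 9 of these 10 genes, against 36.4% of all genes. Kidney cells had more RNA of 4 of them and tail cells more of 5. *Eya1* and *Six2* are partners of group 11 proteins in nephron progenitors. Both had more RNA in TFc than in KFc, at 6.67 against 0.31 CPM and 15.1 against 0.0359 CPM. *Pax2* went the other way, at 0.0883 CPM in TFc and 12 CPM in KFc. Of 10 limb and posterior genes 5 had enough counts to be tested. *Tbx4*, which marks the hindlimb, had 7.47 CPM ± 0.486 in TFc, 0 counts in KFc and 0.263 CPM in HFc.

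Noncoding RNAs of the clusters were also measured. *Hoxa11os*, which overlaps *Hoxa11* on the opposite strand by 1418 bases, had 0.613 CPM in KFc, 5.33 CPM ± 0.754 in TFc (SD, n = 3) and 0 counts in every heart library. Its counts can be told from those of *Hoxa11* only by strand, which the authors' counting used. *Hotair*, transcribed beside *Hoxc11*, had 2.58 CPM ± 0.543 in TFc, 0.174 CPM in KFc and 0 counts in the heart. The genes most like each member over the 18 libraries, by Pearson's correlation of log2 CPM, were *Hox* cluster genes for 6 of the 10 members. *Hoxb7* (r = 0.984) was the most like *Hoxa9*, *Hoxb6* (0.979) *Hoxa10*, *Hoxc6* (0.994) *Hoxc9*, and *Hoxa11os* both *Hoxa11* (0.975) and *Hoxc11* (0.986). *Gm53*, a noncoding RNA in the HoxB cluster, led for *Hoxb9* (0.971). *Sh3kbp1*, an adaptor of receptor endocytosis on no *Hox* cluster, led for *Hoxc10* (0.984), *Epn2* for *Hoxd9* (0.924), *Nova1* for *Hoxd10* (0.944) and *Esr1* for *Hoxd11* (0.826). Of the 10 genes most like the mean of the members, 9 were *Hox* genes of groups 4 to 8 and the other was *Slc5a7*, a choline transporter. Ranked by Spearman's correlation instead, 5 of those 10 genes stayed in the list. For single members, a *Hox* cluster gene then led only for *Hoxc9* (*Hoxc6*), *Hoxc11* (*Hoxa11os*) and *Hoxd10* (*Hoxc5*). Other genes led for the rest, among them *Cotl1* for *Hoxa9*, *Sytl2* for *Hoxa10*, *Adgrl2* for *Hoxa11* and *Cadm2* for *Hoxb9*. By Pearson's correlation without KFs replicate 3, *Hoxb6* led for *Hoxc10* (0.993), so that a *Hox* cluster gene led for 7 of the members. In that setting *Hoxb3* led for *Hoxb9* (0.971), *Dusp1* for *Hoxd9* (0.935), *Thbd* for *Hoxd10* (0.957) and *Nsmce2* for *Hoxd11* (0.856). These points share libraries and 6 group means, so the values describe likeness of pattern across organs and carry no test. Among the members themselves, *Hoxa11* and *Hoxc11* had r = 0.973, *Hoxa9* and *Hoxc9* 0.961, and *Hoxa9* and *Hoxc11* 0.75, while *Hoxd9* had -0.753 with *Hoxc11*.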

How the data were processed

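RNA was sequenced as 75-base single-end reads from stranded total RNA libraries of cultured and sorted transplanted fibroblasts, 3 libraries in each of 6 groups. The authors deposited counts per gene as whole numbers, made by trimming reads, aligning them with Bowtie2 and estimating expected counts with RSEM using the strand. Their methods name GRCm38 and the submitters' processing notes mm9, so coordinates are those of the annotation used here, not of the counts. Of 38924 gene IDs, 37607 had a symbol in the GENCODE mouse annotation, and the other 1317 held 0.277% of counts. All sample columns were used.

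Libraries of 17927838 to 32245168 counts were scaled by TMM, low genes were removed with filterByExpr, and 16577 genes were tested with the quasi-likelihood test of edgeR 4.0.16 (R 4.3.3), 1 mean per group over all 18 libraries and p-values adjusted after Benjamini and Hochberg across those genes. A call needed an adjusted p under 0.05, and between transplanted and cultured cells also a log2 fold change beyond 1 in size. The response comparisons are interaction contrasts. The SE of a fold change was derived from it and the F statistic. RPKM is CPM per kilobase of all annotated exons. Against groups at 0 counts, folds are bounds from a floor of 3 counts per library. Against groups with all libraries at or under 3 counts and a sum above 0, ratios of summed counts have exact 95% Clopper-Pearson intervals. These intervals cover counting error only.

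Alternatives were other normalizations and filters, stricter and looser limits, a replicate block, only the groups compared, each library left out, tubule markers as a covariate, and DESeq2 1.42.0. On simulated counts for HFs and HFc with 15991 genes, 192 of 200 genes changed 4-fold were found with 7 false calls, and 22 of the 30 with a mean under 30 counts. The changed genes were drawn above a minimum mean count, and every gene was given the same dispersion. These rates therefore do not cover members near the floor in the heart. The members and gene lists were chosen with earlier results of these data known. All 10 members are named with their levels, and the genes most like them are the 3 tested genes of highest Pearson correlation of log2 CPM with each member and the 10 of highest correlation with their mean. The list of *Hox* groups below 6 is not reported here.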

Additional observations from a re-analysis of the deposited data

Results flagged for a closer look

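The response to transplantation differed between organs, by the interaction test of edgeR with adjustment over all genes, in 8 pairs of gene and comparison. Between heart and tail fibroblasts the adjusted p was 0.000928 for *Hoxa9*, 0.00109 for *Hoxa10* and 0.0084 for *Hoxc10*. Each was higher in all 3 HFs than in all 3 HFc libraries and lower in all 3 TFs than in all 3 TFc libraries. Of all genes, 67.3% had no overlap between HFs and HFc and 60.4% had none between TFs and TFc. Between kidney and heart fibroblasts it was 0.0014 for *Hoxa9*, 0.0012 for *Hoxa10*, 0.000867 for *Hoxc9* and 0.00488 for *Hoxc10*. Between kidney and tail fibroblasts it was 0.0478 for *Hoxd10*, which went from a mean of 1.34 to 0.517 CPM in kidney and from 0.0569 to 0.22 CPM in tail fibroblasts. That call rested on 0, 1 and 3 counts in TFc and was lost in 16 of the alternative settings. Groups of 3 libraries are too small for a test of single outlying libraries.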

How the results depend on the processing

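No called fold change of a member turned its direction in these settings. Of the members without a call in KFs relative to KFc, 4 changed sign without KFs replicate 3: *Hoxa9* from 0.17 to -0.13, *Hoxb9* from 0.28 to -0.10, *Hoxc11* from -0.27 to 0.07 and *Hoxd9* from 0.43 to -1.003. With only HFs and HFc fitted, 0 of the 2 members still tested were called. For KFs relative to KFc, with 0 members called, the count was 2 without the fold limit, 1 with only those groups and 1 with DESeq2. For TFs relative to TFc, with 2, it was 1 at an adjusted p of 0.01, 1 with library size alone, 1 without a filter, and 0 of 7 tested both with a mean of at least 10 counts and with only those groups. For KFc relative to TFc, with 8, it was 5 at an adjusted p of 0.01 and 5 of 7 tested with a mean of at least 10 counts. With only those groups it was 9 of 9 tested, where 8675 of 14956 genes were called. For KFs relative to TFs, with 4, it was 2 with the tubule covariate and 7 with DESeq2. For the kidney against the tail response, with 1, it was 0 at an adjusted p of 0.01, 0 without a filter, 0 with only those groups, 2 with DESeq2 size factors and 3 with DESeq2. The cause was not tested beyond the smaller number of genes or libraries in some fits.

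Leaving out 1 library at a time gave 3 to 5 members for HFs relative to HFc, 0 to 1 for KFs relative to KFc (1, *Hoxc10*, without KFs replicate 2) and 1 to 2 for TFs relative to TFc (1 without TFc replicate 1, TFs replicate 1 or TFs replicate 2). It gave 6 to 8 for KFc relative to TFc, 3 to 5 for KFs relative to TFs, 2 to 4 for the heart against the tail response and 0 to 3 for the kidney against the tail response (0 without any 1 KFc or TFs library or without TFc replicate 1 or 2, 2 without KFs replicate 1, 3 without KFs replicate 3).

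No pairing of samples by replicate number was seen, and groups of 3 libraries are too small to exclude one. The mean correlation of deviations between same-numbered samples was -0.0898 to 0.0243 over the 9 comparisons of groups, and no pair exceeded 0.1. With the replicate number as a block, 1 member was called in TFs relative to TFc and 0 in the kidney against the tail response. HFs relative to TFs had 7 in place of 8.

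Depth limits the calls that rest on few counts: no HoxD member exceeded 48 counts and no member in the heart 33 counts in any library.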
